A study of Saccharomyces cerevisiae with 12 samples.

Results

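The genes described here are the autophagy genes of baker's yeast, Saccharomyces cerevisiae, and the proteases of its vacuole. They were chosen by name: every probe set whose platform annotation gave 1 symbol made of ATG and a number, together with the vacuolar protease genes PEP4, PRB1, PRC1, CPS1, APE1, APE3 and YSP3. PAI3, which encodes an inhibitor of one of these proteases, was left out of the set. This gave 43 of the 5656 genes on the array, 36 with an ATG name and 7 proteases, and where a gene had several probe sets the brightest on average over the log2 signals was kept.

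The study read transcripts with 12 Affymetrix GeneChip arrays, which report the brightness of probe sets hybridised with labelled polyA RNA. The 4 groups, of 3 arrays each, were nitrogen-limited cultures at 12 °C, nitrogen-limited cultures at 30 °C, carbon-limited cultures at 12 °C and carbon-limited cultures at 30 °C. All were anaerobic chemostats of CEN.PK113-7D, a prototrophic haploid laboratory strain of mating type a, held at pH 5.0 and a dilution rate of 0.03 per hour, so growth rate was set alike in every group. Each array came from a separately grown culture, per the labels' protocols.

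Autophagy carries cytoplasm to the vacuole, the degradative compartment of yeast, in vesicles called autophagosomes. The Atg1 kinase complex starts the process, a phosphatidylinositol 3-kinase and the membrane protein Atg9 help to build the membrane, and the ubiquitin-like protein Atg8 is coupled to lipid on it. Receptors tether chosen cargo such as mitochondria or parts of the endoplasmic reticulum to Atg8. In the vacuole a lipase opens the inner vesicle and proteases, activated in a cascade headed by proteinase A, break down the content. Autophagy in yeast is best known as a response to nitrogen starvation, through the nutrient-sensing kinase complex TORC1, and TORC1 also controls the GATA factors of nitrogen catabolite repression.

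Signals are linear intensities as deposited. Values below 12 were raised to 12 before log2 was taken, since brightness under this floor has no order, and folds of dim genes are therefore understated. Of the 43 genes, 41 were above the floor on at least 3 arrays and were tested, and each of these exceeded it on 7 or more arrays. ATG16 and ATG29 were under the floor on all 12 arrays, with highest signals of 9.5 and 11.6, and have no level here. "Passed" means an adjusted p under 0.05 from limma with Benjamini-Hochberg adjustment over all 5400 genes tested in a contrast, and "rose" and "fell" are used only of genes that passed. For a single gene, 3 arrays against 3 allow no exact permutation p below 0.1 (two-sided), and the number of arrays limits the precision.

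The arrays had a median signal of 41.2 to 51.4, and 22.2% to 26.7% of their 9335 probe sets lay under the floor. Log2 signals of arrays of the same group correlated at 0.952 to 0.986 over genes, which are not independent replicates, and those of different groups at 0.864 to 0.972. The 3'/5' signal ratio of the control transcript ACT1, a sign of RNA integrity, was 1.31 to 1.75 at 12 °C and 1.69 to 1.90 at 30 °C under nitrogen limitation, and 1.12 to 1.87 at 12 °C and 1.70 to 1.91 at 30 °C under carbon limitation. That of the control TBP was 2.53 ± 0.54 at 12 °C and 3.13 ± 0.11 at 30 °C under nitrogen limitation, while carbon-limited cultures had 3.55 ± 0.54 at 12 °C and 2.94 ± 0.38 at 30 °C (SD, n = 3 each). The mean signal of the spiked-in control transcripts was 531 ± 205 at 12 °C and 521 ± 46.4 at 30 °C with nitrogen limiting, and 519 ± 68.8 at 12 °C and 317 ± 33.4 at 30 °C with carbon limiting. The part of these measures in the results below was not tested. In these bulk cultures fewer cells that express a gene and less RNA per cell cannot be told apart.

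At 12 °C against 30 °C under nitrogen limitation, 20 of the 41 tested genes fell and none rose. The vacuolar proteases PRB1, APE1 and CPS1, the receptors ATG39 and ATG32, the scaffold gene ATG11 and the lipase gene ATG15 had the largest falls, between 2.89-fold and 9.05-fold. Among all 5400 genes, 22.3% were lower and 15.9% higher in the same contrast, and the 20 genes are 48.8% of the tested set. The median change of the set was -0.58 on the log2 scale, against -0.10 for all genes tested. With quantile normalization or median scaling the median of all genes moved to 0.01 and 0.04 and that of the set to -0.47 and -0.44. The calls of the set were then 17 lower and 0 higher both times, while those of all genes were 960 lower and 1053 higher, and 908 lower and 1139 higher, in place of 1206 lower and 857 higher.

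**Figure D1:**
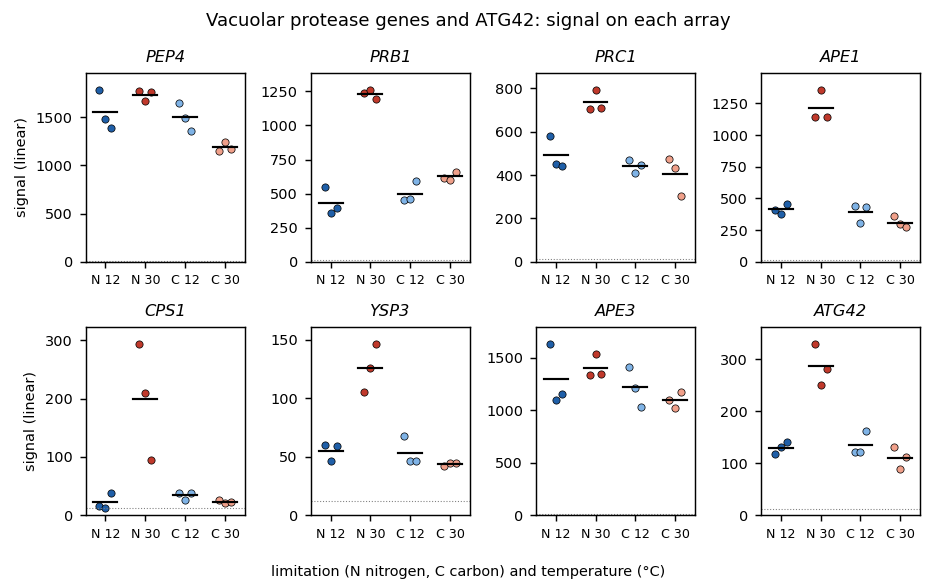
Signal (linear intensity, from 0) of the 7 vacuolar protease genes and ATG42, a carboxypeptidase gene, on each array. Points are single arrays, black bars the means of 3 arrays, N and C stand for nitrogen and carbon limitation, 12 and 30 for the temperature in °C, and the dotted line is the floor of 12. PRB1, APE1, YSP3, CPS1, PRC1 and ATG42 are higher on all 3 nitrogen-limited arrays at 30 °C than on every other array. APE3 and PEP4 are not.

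Among the proteases, 5 of 7 fell at 12 °C under nitrogen limitation (22.3% of all genes were lower) and 2 did not pass. PRB1 encodes proteinase B, a serine protease that activates other vacuolar hydrolases. Its signals were 547.1, 354.8 and 394.2 at 12 °C, against 1236, 1258 and 1192.7 at 30 °C. The groups were far apart, with a 2.89-fold fall (log2 -1.53 ± 0.17 SE, limma adjusted p = 6.29e-06). APE1 encodes aminopeptidase I, which reaches the vacuole itself as cargo of the cytoplasm-to-vacuole targeting (Cvt) pathway, a selective form of autophagy that also runs in growing cells. It read 411.5, 379.2 and 452.4 at 12 °C, against 1139, 1353.2 and 1138.9 at 30 °C. That was a 2.92-fold fall (log2 -1.55 ± 0.17 SE, limma adjusted p = 6.88e-06), again without overlap.

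CPS1 encodes carboxypeptidase S, a membrane-anchored enzyme that takes single residues off peptides. It had the largest change of the set and also the widest spread: 16.4, 12.6 and 38.4 at 12 °C, against 294.1, 209.7 and 95.4 at 30 °C. The lowest array at 30 °C was still above the highest at 12 °C, and the fall was 9.05-fold (log2 -3.18 ± 0.40 SE, limma adjusted p = 2.08e-05). YSP3, a relative of PRB1 whose product is a putative subtilisin-type protease, read 60.2, 46.3 and 58.8 at 12 °C and 105.6, 125.4 and 146.4 at 30 °C, a 2.28-fold fall. PRC1, which encodes carboxypeptidase Y, fell 1.51-fold (490 ± 77.8 at 12 °C and 735 ± 48.3 at 30 °C, SD, n = 3 each, limma adjusted p = 0.0164), a call lost with median scaling and without replicates 2 or 3 at 12 °C or 2 at 30 °C.

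The head of the cascade did not pass. PEP4, which encodes proteinase A, read 1780.5, 1484.4 and 1389 at 12 °C, against 1771, 1666.8 and 1760.2 at 30 °C. These ranges overlap, and the estimate was -0.17 ± 0.14 (log2, SE). APE3, the gene of aminopeptidase Y, likewise overlapped, with an estimate of -0.13 ± 0.17 (log2, SE), which turned to 0.01 with median scaling.

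Of 7 tested genes of the conjugation system that couples Atg8 to lipid, 2 were lower and 5 did not pass. With 22.3% of all genes lower, no result about the system as a whole is read from this count. ATG8 itself, whose product coats the growing membrane and binds the receptors, read 267, 363.9 and 420.6 at 12 °C under nitrogen limitation, against 752.9, 821.2 and 890.4 at 30 °C. The fall was 2.38-fold (log2 -1.25 ± 0.21 SE, limma adjusted p = 0.000292), and no array at 12 °C came near those at 30 °C. ATG7, the activating enzyme shared by Atg8 and Atg12, read 24.5, 31.6 and 28.2 at 12 °C, against 59.8, 87.9 and 68.3 at 30 °C, a 2.54-fold fall. ATG3, the conjugating enzyme of Atg8, ATG10, that of Atg12, and ATG4, the protease that trims Atg8, did not pass, nor did ATG12 or ATG5, the acceptor of Atg12. Their estimates ran from -0.36 for ATG12 to 0.14 for ATG10 on the log2 scale. ATG4 read 6.3, 9.5 and 10 at 12 °C, each under the floor, against 14.9, 12.8 and 17.6 at 30 °C, so its estimate of -0.32 is a lower bound on the size of the difference, and it passed with a floor of 1.

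In the reported fit none of the 4 tested genes of the Atg1 kinase complex passed in this or any other contrast. ATG1, the kinase, read 21.7, 18.4 and 32.6 at 12 °C under nitrogen limitation and 33.1, 27.3 and 20.9 at 30 °C, and the 2 ranges overlap. ATG13, its regulatory partner, had an estimate of 0.21 ± 0.26 (log2, SE), and ATG17, the scaffold, and ATG31 had estimates of -0.68 ± 0.32 and -0.58 ± 0.23. For ATG17 and ATG31 the limma adjusted p values were 0.0997 and 0.0578, so a fall of that size was not resolved. ATG31 passed as lower in 2 alternatives.

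The membrane-building genes moved in part. ATG14, which directs the phosphatidylinositol 3-kinase to autophagy, read 12.5, 14.9 and 17.3 at 12 °C and 26.1, 29.7 and 30.2 at 30 °C under nitrogen limitation, a 1.94-fold fall (limma adjusted p = 0.00184). ATG38, another subunit of that complex, did not pass (log2 0.02 ± 0.27 SE). Of 6 genes around Atg9 and the lipid transfer protein Atg2, 3 fell (22.3% of all genes were lower). ATG9 fell by 0.75, ATG2 by 0.70 and ATG23, which helps Atg9 to traffic, by 0.52 on the log2 scale.

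These 3 genes are dim. The arrays of ATG2 overlapped and its call was lost in 16 of 20 alternatives, ATG23 lost its call with quantile normalization, with median scaling and with a floor of 1, and ATG9 lost it with quantile normalization and with that floor. ATG18, which binds the lipid made by the kinase, ATG27, a partner of Atg9, and ATG41 did not pass.

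**Figure D2:**
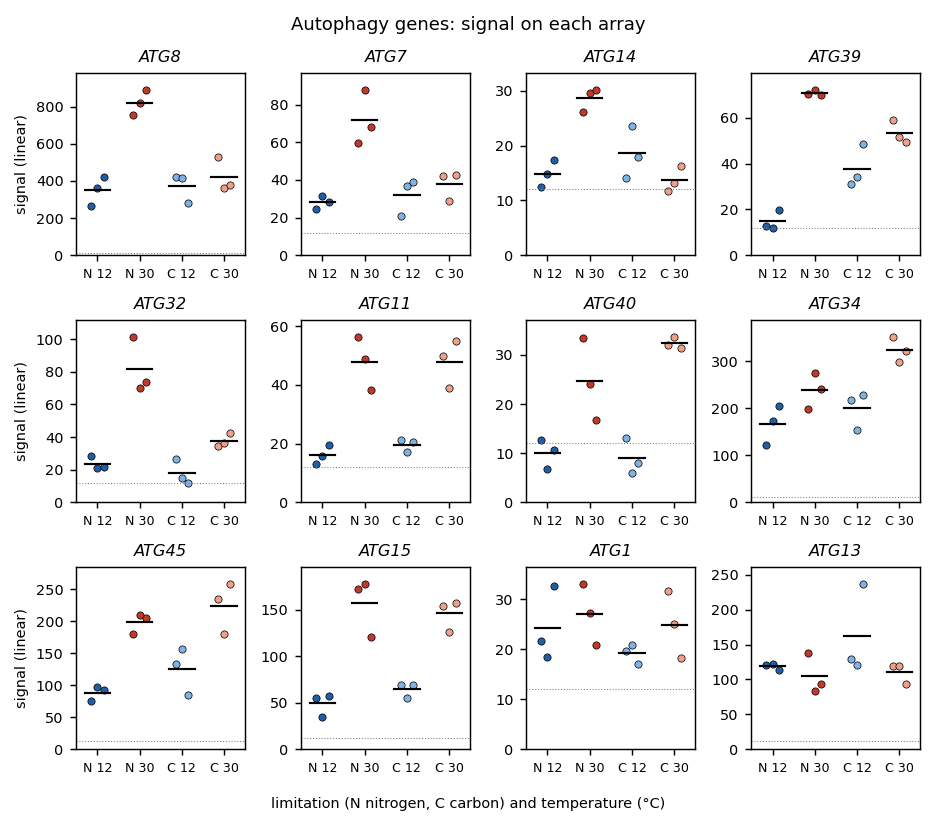
Signal (linear intensity, from 0) of 12 autophagy genes on each array, drawn as for the protease genes, with the floor of 12 as a dotted line. ATG8, ATG7, ATG14, ATG39 and ATG32 are highest on the 3 nitrogen-limited arrays at 30 °C. ATG11, ATG40, ATG45, ATG15 and ATG32 are lower at 12 °C than at 30 °C under both limitations. ATG1 lies between 17.1 and 33.1 on all 12 arrays.

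Selective receptors and scaffolds held 6 of the 20 falls, from 11 tested genes (22.3% of all genes were lower). ATG39, the receptor that brings the nuclear envelope and perinuclear endoplasmic reticulum to autophagosomes, read 12.8, 11.7 and 19.7 at 12 °C, against 70.3, 72.3 and 69.8 at 30 °C. One array at 12 °C lay under the floor, and the fall was 4.89-fold (log2 -2.29 ± 0.23 SE, limma adjusted p = 2.04e-06). ATG32, the mitochondrial receptor, read 28.1, 21.1 and 21.5 at 12 °C, against 101.6, 70.2 and 74 at 30 °C, a 3.46-fold fall (limma adjusted p = 9.69e-05).

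ATG11, the scaffold on which selective cargo meets the core machinery, read 13.1, 15.8 and 19.5 at 12 °C, against 56.4, 48.8 and 38.3 at 30 °C. It fell 2.97-fold (limma adjusted p = 5.25e-05) with no overlap. ATG40, a receptor for the endoplasmic reticulum, had 2 of 3 arrays at the floor at 12 °C (12.7, 6.8 and 10.6), against 33.4, 24 and 16.8 at 30 °C. Both groups stayed apart. ATG20, a sorting nexin of the Cvt pathway, read 6.4, 7.6 and 10 at 12 °C, under the floor each time, and 19.3, 18.8 and 25.5 at 30 °C, which makes the fall at least 1.75-fold. ATG26, a sterol glucosyltransferase known from the removal of peroxisomes in Pichia pastoris, fell 1.63-fold.

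The remaining tested genes among these selective receptors and scaffolds did not pass under nitrogen limitation. ATG19, the receptor of aminopeptidase I, and its neighbour and relative ATG34 had estimates of -0.22 ± 0.19 and -0.54 ± 0.22 (log2, SE). ATG36, the receptor of peroxisomes, ATG21, a lipid-binding Cvt factor, and the mitophagy gene ATG33 had estimates of -0.53 ± 0.31, -0.46 ± 0.24 and 0.18 ± 0.21.

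Of 3 genes of breakdown and efflux in the vacuole, 2 fell (22.3% of all genes were lower), and so did the receptor gene ATG45. ATG15, the lipase that opens autophagic bodies, read 55.3, 35 and 57.6 at 12 °C, against 172.2, 178.1 and 120.8 at 30 °C, a 3.22-fold fall (limma adjusted p = 5.39e-05). ATG42, a vacuolar carboxypeptidase related to carboxypeptidase Y, read 116.9, 131.8 and 141.6 at 12 °C and 329.8, 251.2 and 281.1 at 30 °C, a 2.20-fold fall. ATG45, the receptor that carries glycogen to the vacuole, fell 2.26-fold (88.4 ± 10.9 at 12 °C and 199 ± 16.1 at 30 °C, SD, n = 3 each). The amino acid exporter ATG22 did not pass, with an estimate of 0.43 ± 0.30 (log2, SE).

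At 12 °C against 30 °C under carbon limitation, 6 of the 41 tested genes fell and 1 rose. ATG40, ATG11, ATG15 and ATG32 fell by more than 2-fold, ATG45 and ATG34 by less, and ATG27 rose. Among all genes, 12.6% were lower and 13.1% higher in this contrast, so 14.6% of the set lower is close to the background. The set's median change was -0.14 on the log2 scale, against 0.03 for all genes.

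ATG40 read 13.1, 6 and 8 at 12 °C under carbon limitation, against 32, 33.7 and 31.5 at 30 °C. With 2 arrays at the floor, its 2.62-fold fall (log2 -1.39 ± 0.20 SE, limma adjusted p = 0.000132) understates the change in brightness. ATG11 read 21.1, 17 and 20.4 at 12 °C, against 49.7, 38.9 and 54.9 at 30 °C, a 2.44-fold fall (limma adjusted p = 0.000476). ATG15 read 69.3, 55.1 and 69 at 12 °C, against 154, 126.7 and 157.9 at 30 °C, a 2.27-fold fall (limma adjusted p = 0.0017). All of these were separated with no overlap, for ATG15 on the probe set kept. On the log2 scale ATG40, ATG11 and ATG15 changed by -1.39, -1.29 and -1.18 here, and by -0.96, -1.57 and -1.68 under nitrogen limitation. ATG32 read 26.7, 15.1 and 11.9 at 12 °C, against 34.7, 36.1 and 42.5 at 30 °C, and fell 2.22-fold, a call lost with a floor of 50, above every one of these signals.

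The remaining changes were smaller. ATG45 averaged 125 ± 36.2 at 12 °C and 224 ± 40.7 at 30 °C (SD, n = 3 each), a 1.83-fold fall. ATG34, a receptor for vacuolar alpha-mannosidase in starved cells, read 216.6, 153.7 and 228.9 at 12 °C, against 352, 298.9 and 322 at 30 °C, a 1.64-fold fall (limma adjusted p = 0.0236). ATG27, a partner of Atg9, averaged 207 ± 33.5 at 12 °C and 131 ± 29.0 at 30 °C and was the 1 gene of the set that rose at 12 °C (1.59-fold, limma adjusted p = 0.0256). The calls of ATG45, ATG34 and ATG27 were each lost without replicate 3 at 30 °C, where 4 genes of the set passed in all. ATG34 also lost its call without replicate 2 at 12 °C or 1 at 30 °C, and ATG27 without replicate 3 at 12 °C or with only the groups compared in the fit.

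In the reported fit no protease passed under carbon limitation. Their estimates on the log2 scale ran from -0.34 ± 0.17 (SE) for PRB1 to 0.56 ± 0.40 for CPS1, and 6 of 7 were above 0. PEP4 read 1648, 1490.7 and 1359.4 at 12 °C, against 1150.2, 1248.1 and 1173.3 at 30 °C, which do not overlap, but its limma adjusted p was 0.0904. PRB1, at 452, 456.8 and 589.7 against 613.5, 602.9 and 660.8, did not overlap either (limma adjusted p = 0.164). In alternatives PRB1 passed as lower with quantile normalization, and PEP4 as higher without the filter on dim genes. APE1 passed as higher without replicate 2 at 12 °C. ATG8 read 421.9, 416.9 and 281.2 at 12 °C and 527.6, 360 and 377.9 at 30 °C, and these ranges overlap.

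ATG11, ATG15, ATG32, ATG40 and ATG45 fell at 12 °C under both limitations. They are 5 of the 20 that fell under nitrogen limitation and 5 of the 6 that fell under carbon limitation. The 2 comparisons share no arrays, but each gene's spread was estimated over all 12, so their calls are not fully independent. These 5 genes are 12.2% of the tested set, not far from the 8.04% of all genes that fell under both limitations. No gene of the set was called in opposite directions. For these 5 genes the difference between the 2 temperature effects did not pass, with limma adjusted p values of 0.333 to 0.628. This does not show that the effects are equal. That of ATG32 was -0.64 ± 0.38 (log2, SE) and passed with a floor of 50, which lies above all its carbon-limited signals. ATG15 has 3 probe sets: a less bright one read 27.1, 24.2 and 35.5 at 12 °C and 36.5, 23 and 43.2 at 30 °C under carbon limitation, which overlap, while under nitrogen limitation it read 47.9, 29.7 and 28.1 at 12 °C and 85.8, 93.4 and 88.2 at 30 °C. With the mean of its probe sets ATG15 still passed under both limitations.

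**Figure D3:**
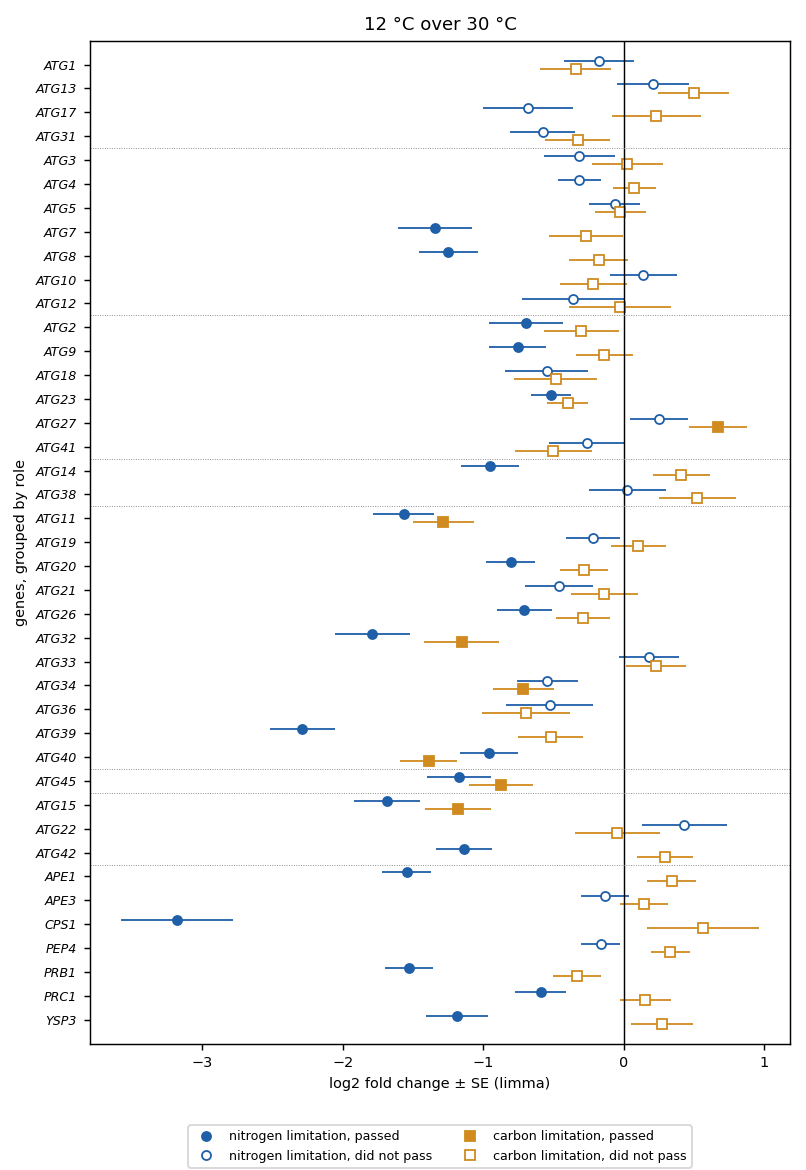
Log2 fold change of 12 °C over 30 °C for each of the 41 tested genes, with SE from limma, in nitrogen-limited (circles) and carbon-limited (squares) cultures, and dotted lines between roles. Filled symbols passed the adjusted p threshold. Filled circles are all left of 0, and the proteases at the bottom lie left of 0 under nitrogen limitation (APE3 at 0.01 with median scaling) while 6 of 7 lie right of it under carbon limitation.

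The temperature effect itself differed between the limitations for 8 genes, by the interaction term of the fit over all 12 arrays. CPS1, APE1, ATG39, YSP3, ATG42, ATG14, PRB1 and ATG8 all had a more negative temperature effect under nitrogen limitation, and no gene of the set differed the other way. Of all genes, 4.54% differed downward and 2.91% upward, against 19.5% and none of the set. The set's median difference was -0.39 on the log2 scale (the estimate of ATG4, which rests on floored values), against -0.10 for all genes. With quantile normalization or median scaling 9 and 8 genes of the set differed downward and 0 upward, while the split over all genes turned to 227 downward and 236 upward, and 180 downward and 250 upward, in place of 245 and 157.

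For CPS1 the temperature effect was -3.18 under nitrogen limitation and 0.56 under carbon limitation, a difference of -3.74 ± 0.56 (log2, SE, limma adjusted p = 0.000689). For APE1 the effects were -1.55 and 0.34, a difference of -1.89 ± 0.25 (limma adjusted p = 0.000174). ATG39 had effects of -2.29 and -0.52 and thus the same sign under both, with a difference of -1.77 ± 0.33 (limma adjusted p = 0.00354).

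The differences of YSP3, ATG42, ATG14 and PRB1 lay between -1.46 and -1.20, with limma adjusted p values of 0.00592 to 0.00884. ATG8, at -1.07 ± 0.30 (limma adjusted p = 0.0386), was the least firm of the 8 and lost its call in 12 of 20 alternatives, where its adjusted p reached 0.107. PRC1 and ATG7, with differences of -0.75 ± 0.25 and -1.08 ± 0.37, did not pass (limma adjusted p = 0.087 and 0.0897).

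At 30 °C, 14 of the 41 tested genes were higher under nitrogen than under carbon limitation and 1 was lower. Of the 7 proteases 6 rose. Among all genes 14.3% were higher and 12.6% lower in this contrast, and the 14 are 34.1% of the tested set. With quantile normalization or median scaling 14 and 13 genes of the set were higher and 1 lower both times, while all genes had 789 higher and 843 lower, and 659 higher and 796 lower, in place of 771 and 681. The set's median was 0.29 on the log2 scale, against 0.04 for all genes. This comparison uses the same nitrogen-limited arrays at 30 °C as the temperature contrast above, so the 2 sets of values are not independent.

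CPS1 averaged 200 ± 99.7 under nitrogen and 23.0 ± 2.55 under carbon limitation (SD, n = 3 each), a 7.88-fold rise (log2 2.98 ± 0.40 SE, limma adjusted p = 5.93e-05). APE1 averaged 1210 ± 124 under nitrogen and 308 ± 44.6 under carbon limitation, a 3.94-fold rise (limma adjusted p = 6.81e-07). YSP3, ATG42, PRB1 and PRC1 rose 2.86-fold, 2.62-fold, 1.97-fold and 1.86-fold. Every nitrogen-limited array was above every carbon-limited one for each of these genes. PEP4 rose 1.46-fold (1733 ± 57.3 under nitrogen and 1191 ± 51.2 under carbon limitation, limma adjusted p = 0.0086), and APE3, at 0.36 ± 0.17 (log2, SE), did not pass.

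Of the autophagy genes proper, ATG8 rose 1.97-fold at 30 °C (821.5 ± 68.8 under nitrogen and 422 ± 92.0 under carbon limitation, SD, n = 3 each, limma adjusted p = 0.00295). ATG14 rose 2.09-fold, ATG32 2.15-fold, ATG7 1.90-fold and ATG19 1.70-fold. Their arrays did not overlap between the limitations. The carbon-limited arrays of ATG14 read 11.8, 13.2 and 16.2 at 30 °C, with 1 under the floor, so its fold rests on dim signals. ATG2 and ATG33 also rose, and these calls were lost in 12 of 20 and 8 of 21 alternatives. ATG10 was lower, at 147 ± 43.7 under nitrogen and 245 ± 34.4 under carbon limitation (limma adjusted p = 0.0253), a call lost without the filter on dim genes and without replicate 1 or 3 of nitrogen limitation or 1 or 2 of carbon limitation at 30 °C. ATG7 lost its call without replicate 2 of either limitation at 30 °C, and ATG19 with the mean of its probe sets, of which the other lay under the floor on all 12 arrays.

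**Figure D4:**
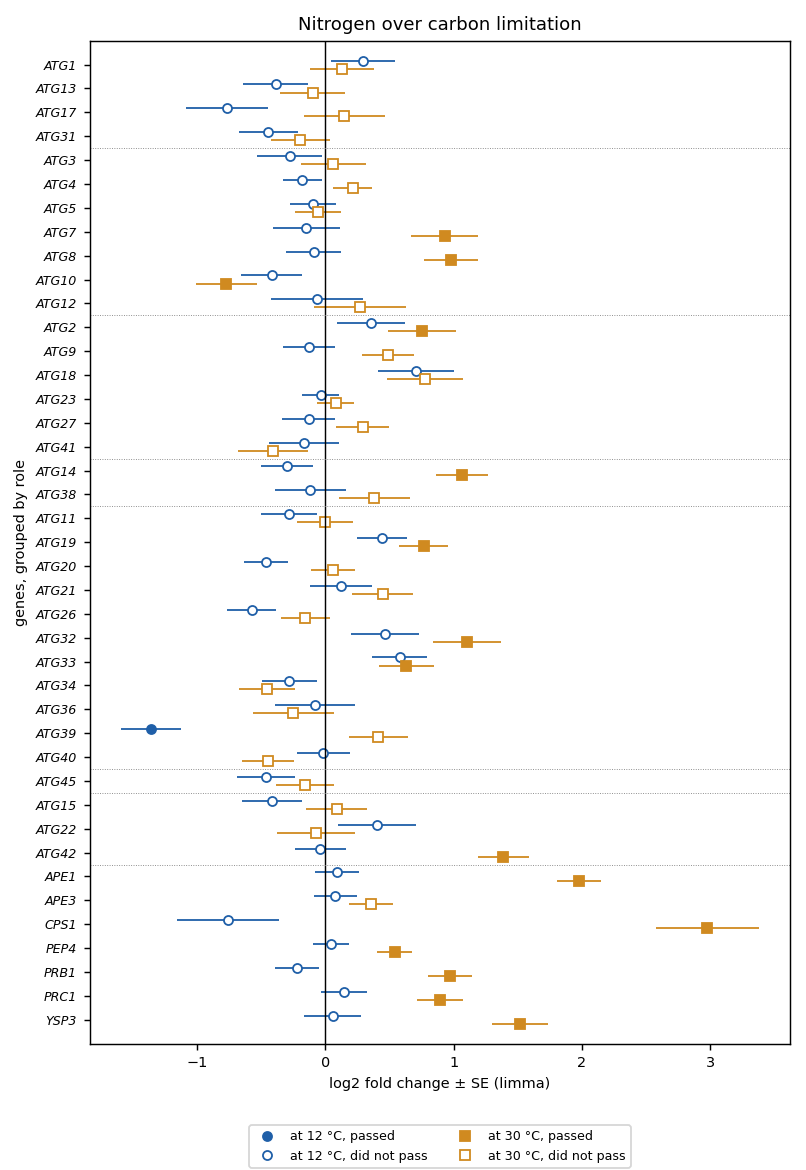
Log2 fold change of nitrogen over carbon limitation for the 41 tested genes, with SE from limma, at 12 °C (circles) and at 30 °C (squares), and dotted lines between roles. Filled symbols passed the adjusted p threshold. All 7 proteases lie right of 0 at 30 °C and 6 of them are filled, while at 12 °C ATG39 is the only filled symbol.

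At 12 °C the same comparison left 1 gene of the set past the threshold. ATG39 read 12.8, 11.7 and 19.7 under nitrogen limitation, against 30.9, 34 and 48.5 under carbon limitation, a 2.56-fold fall (log2 -1.36 ± 0.23 SE, limma adjusted p = 0.0039), also with no overlap. This call was lost with a floor of 50, above all of these signals, and with only the 2 groups in the fit. Of all genes 3.85% were lower and 1.81% higher at 12 °C, and the splits with quantile normalization and median scaling were 154 lower with 124 higher, and 154 lower with 142 higher, in place of 208 and 98. The comparison shares its nitrogen-limited arrays with the temperature contrast under nitrogen limitation and its carbon-limited arrays with that under carbon limitation. The proteases had estimates between -0.76 ± 0.40 (log2, SE) for CPS1 and 0.15 ± 0.18 for PRC1. The set's median was -0.12 on the log2 scale, against -0.05 for all genes.

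Over the 4 groups, the mean floored signal was highest in nitrogen-limited cultures at 30 °C for 24 of the 41 tested genes (58.5%), and for 34.1% of all genes tested. PRB1, for example, averaged 432 ± 102 at 12 °C and 1229 ± 33.2 at 30 °C with nitrogen limiting, and 499.5 ± 78.2 at 12 °C and 626 ± 30.8 at 30 °C with carbon limiting (SD, n = 3 each). ATG11, ATG15, ATG40 and ATG45 fell at 12 °C under either limitation and passed in neither comparison between the limitations. For ATG15 this holds for the probe set kept. Another of its probe sets read 85.8, 93.4 and 88.2 under nitrogen and 36.5, 23 and 43.2 under carbon limitation at 30 °C, without overlap. The third read 111.4, 105.1 and 82.4 against 94.5, 77.8 and 88.8, which overlap. The 15 tested genes that passed in no contrast of the reported fit were ATG1, ATG3, ATG4, ATG5, ATG12, ATG13, ATG17, ATG18, ATG21, ATG22, ATG31, ATG36, ATG38, ATG41 and APE3. Of these, ATG4, ATG18, ATG21, ATG31, ATG36, ATG41 and APE3 passed in 1 or more alternatives. ATG18 passed in 5 for nitrogen against carbon limitation at 30 °C.

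Other genes of the pathway were read from lists chosen by function, and their calls were not checked in the alternatives. Their counts stand beside these shares of all 5400 genes tested. At 12 °C against 30 °C 22.3% were lower and 15.9% higher under nitrogen limitation, and 12.6% lower and 13.1% higher under carbon limitation. At 30 °C 14.3% were higher and 12.6% lower under nitrogen than under carbon limitation. Of 3 tested inhibitors of the proteases, 2 fell at 12 °C under nitrogen and 2 under carbon limitation. PAI3, the inhibitor of proteinase A, read 36.9, 47.8 and 60.5 at 12 °C and 96, 81.4 and 85.6 at 30 °C under nitrogen limitation (log2 -0.88 ± 0.21 SE). Under carbon limitation it read 43.2, 42.1 and 42.7 at 12 °C and 148.4, 182.9 and 139.4 at 30 °C (log2 -1.87 ± 0.21 SE, limma adjusted p = 1.15e-05). TFS1, the inhibitor of carboxypeptidase Y, fell by 1.15 and 0.61 on the log2 scale under nitrogen and carbon limitation. At 30 °C PAI3 was lower under nitrogen than under carbon limitation (log2 -0.83 ± 0.21 SE), while PEP4, whose product it inhibits, was higher.

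Among 7 other vacuolar hydrolases, 4 fell at 12 °C under nitrogen and 1 under carbon limitation (22.3% and 12.6% of all genes). ATH1, the acid trehalase, fell under both (log2 -1.66 ± 0.19 and -1.19 ± 0.19, SE). DAP2, a dipeptidyl aminopeptidase of the vacuolar membrane, fell by 1.22 under nitrogen limitation, and PHO8, the vacuolar alkaline phosphatase, by 0.97. DAP2 and PHO8 were higher under nitrogen than under carbon limitation at 30 °C, by 1.33 and 0.82.

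Of 20 tested machinery genes that carry no ATG name, 7 fell at 12 °C under nitrogen limitation (22.3% of all genes). Under carbon limitation 3 fell and 1 rose (12.6% and 13.1% of all genes), so the falls there are close to the background. VPS30, a subunit of the phosphatidylinositol 3-kinase that is also called Atg6, read 24.7, 31.2 and 39.7 at 12 °C, against 93.2, 96.2 and 108.5 at 30 °C under nitrogen limitation (log2 -1.66 ± 0.21 SE, limma adjusted p = 1.91e-05). Under carbon limitation it read 46.4, 44.6 and 48.4 at 12 °C and 124.1, 116.8 and 132.1 at 30 °C, so VPS30 fell at 12 °C under both limitations. VAM7, a SNARE of vacuole fusion, fell under both as well, by 1.06 and 0.66 on the log2 scale.

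Of the 14 subunit genes of the vacuolar proton pump 1 fell and 3 rose at 12 °C under nitrogen limitation (22.3% and 15.9% of all genes). Under carbon limitation none fell and 1 rose (12.6% and 13.1% of all genes). No result about the pump is read from these counts. Of 10 vacuolar transporters of amino acids, 1 fell and 2 rose at 12 °C under carbon limitation (12.6% and 13.1% of all genes). Under nitrogen limitation 4 fell and 2 rose (22.3% and 15.9% of all genes). VBA1, a permease of basic amino acids into the vacuole, read 241.5, 144.9 and 175.7 at 12 °C, against 1369, 1265.8 and 1057.5 at 30 °C, a log2 change of -2.74 ± 0.19 (SE, limma adjusted p = 2.91e-08). AVT4, an exporter of amino acids from the vacuole, and its relative AVT6 fell by 0.92 and 1.52. YPQ1, a lysine transporter, rose by 1.43 under nitrogen and by 1.15 under carbon limitation.

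Genes of TORC1 and its regulators had 11 of 20 lower at 12 °C under nitrogen limitation, none higher, and 1 lower under carbon limitation. Of all genes 22.3% were lower and 15.9% higher under nitrogen limitation, and 12.6% lower under carbon limitation. The medians of the list were -0.78 and -0.17 on the log2 scale under nitrogen and carbon limitation. SCH9, a kinase that TORC1 activates, fell by 1.48 ± 0.24 (SE), and RTC1, NPR3 and IML1, of the SEA complex that restrains or supports TORC1 at the vacuole, fell by 1.47, 1.42 and 1.19. Of the same list 10 were higher and 1 lower under nitrogen than under carbon limitation at 30 °C (14.3% and 12.6% of all genes).

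Of 17 regulators linked to ATG gene expression, 8 fell at 12 °C under nitrogen limitation (22.3% of all genes). Under carbon limitation 1 fell and 1 rose (12.6% and 13.1% of all genes). DAL80, the GATA repressor of nitrogen catabolic genes, which is itself switched on when nitrogen is poor, read 43.6, 50.8 and 51.8 at 12 °C, against 559.8, 648.9 and 634.4 at 30 °C (log2 -3.66 ± 0.33 SE, limma adjusted p = 5.89e-07). GAT1, a GATA activator, read 72.4, 101.6 and 122.7 at 12 °C, against 457, 396.3 and 478.1 at 30 °C (log2 -2.19 ± 0.22 SE). GLN3, the other main activator, fell by 1.06 and SIN3, a corepressor subunit, by 1.31.

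Both DAL80 and GAT1 also differed between the limitations in their temperature effect, by -3.86 ± 0.46 and -2.04 ± 0.31 (log2, SE). In carbon-limited cultures DAL80 read 54.4, 16.7 and 47.8 at 12 °C and 28.1, 29.8 and 33.8 at 30 °C, all below every nitrogen-limited array at 30 °C. GCN4, the activator of amino acid synthesis genes, fell by 0.55 at 12 °C under carbon limitation. Whether any of these regulators acted on the autophagy genes was not tested.

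**Figure D5:**
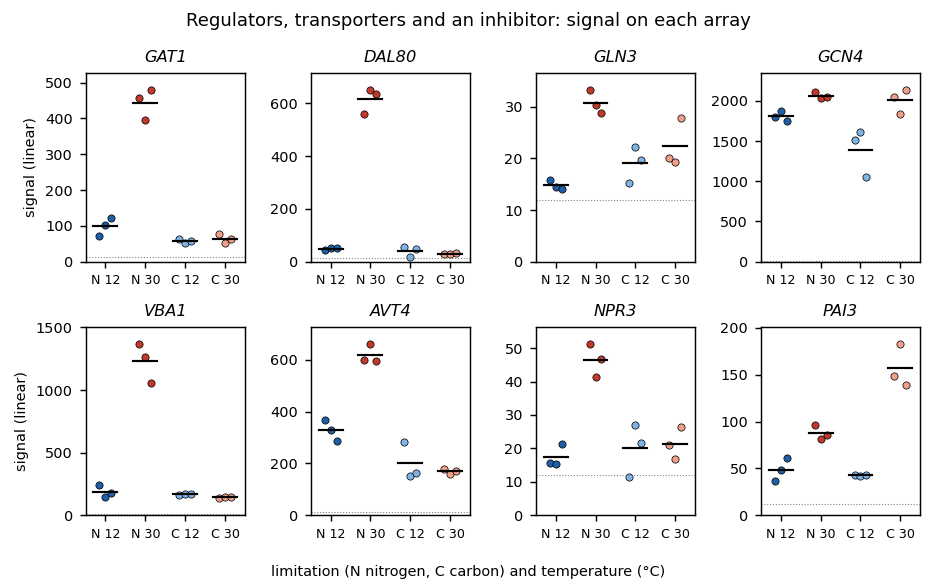
Signal (linear intensity, from 0) of 8 genes outside the set on each array, drawn as for the protease genes: 4 transcriptional regulators, the vacuolar transporter genes VBA1 and AVT4, the TORC1 regulator NPR3 and the protease inhibitor PAI3. GAT1, DAL80, GLN3, NPR3, VBA1 and AVT4 are highest on the 3 nitrogen-limited arrays at 30 °C, GLN3 by a narrow margin. PAI3 is highest on the carbon-limited arrays at 30 °C.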

How the data were processed

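Levels were measured on 12 Affymetrix arrays, 3 for each combination of limitation and temperature, grouped by sample titles. The deposited values are linear intensities of probe sets made by the authors with GCOS, per the submitters' processing notes; the version, algorithm and scaling target were not given in these sources. After trimming 2% at each end, the mean signal was 150.1 on every array, so RNA content per cell cannot be compared. Probe sets were named through GEO's platform annotation: 6504 of 9335 had 1 symbol, 328 several and 2503 none, and ATG44 had none. Signals were floored at 12 and log2 was taken. Of 5656 genes, 5400 exceeded the floor on 3 or more arrays. Group means over all 12 arrays were fitted with lmFit and eBayes with an intensity trend (limma 3.58.1, R 4.3.3), p-values adjusted by Benjamini-Hochberg, threshold 0.05. The fit was tested on simulated data. The members, the lists and the tests were chosen with earlier results of these data known. All members may be named, and up to 4 genes that passed per other list and contrast. Alternatives changed the floor, the dim-gene filter, the normalization, the probe set rule, the intensity trend, the arrays in the fit and the replicate block, or left out 1 array. No sequences or scan dates were used here.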

Additional observations from a re-analysis of the deposited data

Results flagged for a closer look

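For 8 genes the effect of temperature differed between nitrogen and carbon limitation, by the interaction term of the limma fit over 12 arrays (nitrogen minus carbon, on the log2 scale). The differences were -3.74 for CPS1, -1.89 for APE1, -1.77 for ATG39, -1.46 for YSP3, -1.43 for ATG42, -1.36 for ATG14, -1.20 for PRB1 and -1.07 for ATG8. All 8 are negative, meaning that the change from 30 °C to 12 °C was more strongly downward in nitrogen-limited cultures. The difference for ATG8 is the one that most alternatives removed. No separate test for outlying arrays was run on these groups of 3. In the fits that left out 1 array, CPS1, APE1, ATG39, YSP3, ATG42, ATG14 and PRB1 kept their calls each time.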

How the results depend on the processing

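The 41 tested genes gave 51 calls over the 5 contrasts, and 36 of them were kept in each of the alternatives in which the gene was tested (9 other settings and 12 fits that leave out 1 array). The other 15 were lost in 1 or more, and none changed direction. Another 26 values passed in an alternative and not in the reported fit. For 12 °C against 30 °C under carbon limitation, 7 genes of the set passed, against 4 with a floor of 50, and 4 to 8 when 1 array was left out, with 4 without replicate 3 of carbon limitation at 30 °C. For nitrogen against carbon limitation at 12 °C, 1 gene passed, against 0 with a floor of 50, 2 with a floor of 1 and 0 with only the groups compared in the fit, and 1 to 2 when 1 array was left out, with 2 without replicate 3 of nitrogen limitation at 12 °C. A floor of 50 removes genes from the test, and the difference of temperature effects needs all 4 groups, so it has no fit with only the groups compared. The cause of the other shifts was not tested. With the replicate number as a block, 19 genes passed for temperature under nitrogen limitation, 7 under carbon limitation and 7 for the difference, and 13 and 1 for the limitations at 30 °C and 12 °C. Deviations of same-numbered arrays from their group means correlated at -0.20 to 0.18 over genes, which does not settle whether arrays were paired. The sample titles give replicate numbers and name no pairing. Over all genes, 1386 passed for temperature under carbon limitation, and 921 without replicate 1 of carbon limitation at 30 °C. For the difference of temperature effects 402 passed over all genes, but 246 and 249 without replicates 1 and 2 of carbon limitation at 30 °C, and 261 and 248 without replicates 1 and 2 of nitrogen limitation at 30 °C. At 12 °C 306 genes separated the limitations, but 4 with only the groups compared. Leaving out 1 array lowered that number to 128 without replicate 2 of nitrogen limitation and to 196 and 133 without replicates 2 and 3 of carbon limitation at 12 °C. It was 196 without replicate 2 of nitrogen limitation and 193 and 201 without replicates 1 and 3 of carbon limitation at 30 °C. Signals near background limit ATG2, ATG4, ATG9, ATG20, ATG23 and ATG40, and ATG16 and ATG29 have no level here. ATG14, ATG17, ATG32 and ATG39 are limited too, each with 1 array under the floor. That array was carbon-limited at 30 °C for ATG14 and at 12 °C for ATG32, and nitrogen-limited at 12 °C for ATG17 and ATG39.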
